A study of Homo sapiens with 12 samples.

Results

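The Notch genes described here are 10 named entries of a table of 19225 genes: the receptors NOTCH1, NOTCH2 and NOTCH3, the ligands JAG1, JAG2 and DLL1, the glycosyltransferase LFNG, the coactivator MAML1 and the target genes HES1 and HEY1. They were chosen by symbol, all 10 were found, and all 10 were among the 13887 genes that passed the filter on low counts. The counts came from poly(A) RNA of 2 established oral squamous cell carcinoma lines, HN6 and HN30, harvested 24 h after transfection with Lipofectamine RNAiMAX. Each line received a scrambled control siRNA (NC), siFAT1-1 or siFAT1-2, the last 2 directed against the atypical cadherin FAT1, so that there were 6 conditions with 2 repeats each, 12 libraries in all, of which 4 were NC and 8 were FAT1 knockdown (KD). The sample titles name the knockdowns as sh1 and sh2, while the sample descriptions call them siRNAs. A repeat is a transfection done at a separate time in the same line, so a p-value covers the spread between such repeats and not between tumours. In fits over both lines without an interaction it also covers differences between the lines in their response. With the siRNAs pooled it covers the difference between the siRNAs as well.

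Notch receptors are read out by contact: a JAG or DLL ligand on one cell pulls on a receptor of its neighbour, ADAM proteases and gamma-secretase cut the receptor, and the freed intracellular domain enters the nucleus. There it joins the DNA-binding protein RBPJ and a Mastermind coactivator such as MAML1 and turns on HES and HEY genes, which encode repressors. LFNG adds sugars to the receptor that alter which ligands it answers. In stratified squamous epithelium the pathway is known for its part in leaving the basal layer and in differentiation.

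The targeted gene FAT1 separated the NC from the KD libraries in each line, at 56.8 and 66.7 CPM (counts scaled to a common library size, after TMM normalization) with NC in HN6 against 7.61 to 21.4 CPM with either siRNA, and at 13.6 and 14.7 CPM in HN30 against 4.86 to 10.8 CPM. Over all libraries its log2 fold change was -1.59 with a standard error of 0.308 and an adjusted p of 0.0404 by edgeR (quasi-likelihood fit, Benjamini-Hochberg). That test is behind every adjusted p given here, except where DESeq2 is named. A replicate block for the repeat took that edgeR adjusted p to 0.0757. The call was also lost in 11 of the 12 fits that left out 1 library, all but the one without HN30 siFAT1-2 repeat 1, with a highest edgeR adjusted p of 0.124 without HN6 NC repeat 1. With siFAT1-1 alone the FAT1 log2 fold change was -1.996 (edgeR adjusted p = 0.00656) and with siFAT1-2 alone -1.27 (edgeR adjusted p = 0.0236, and 0.072 without HN6 siFAT1-2 repeat 1). Within HN30 siFAT1-2 gave -0.61 (edgeR adjusted p = 0.422). Libraries held 26430049 to 47639010 counts. Of 8 squamous epithelial markers, 8 reached 1 CPM in HN6 and 7 in HN30, where KRT14 was at 0 to 0.0748 CPM. Of 4 leukocyte markers 2 reached 1 CPM in each line, CD68 at 69.0 to 121 CPM in HN6 and 16.1 to 31.3 CPM in HN30 and CD14 at medians of 2.325 and 8.99 CPM, while PTPRC was at 0 in all HN6 libraries and at most 0.0252 CPM in HN30.

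**Figure D1:**
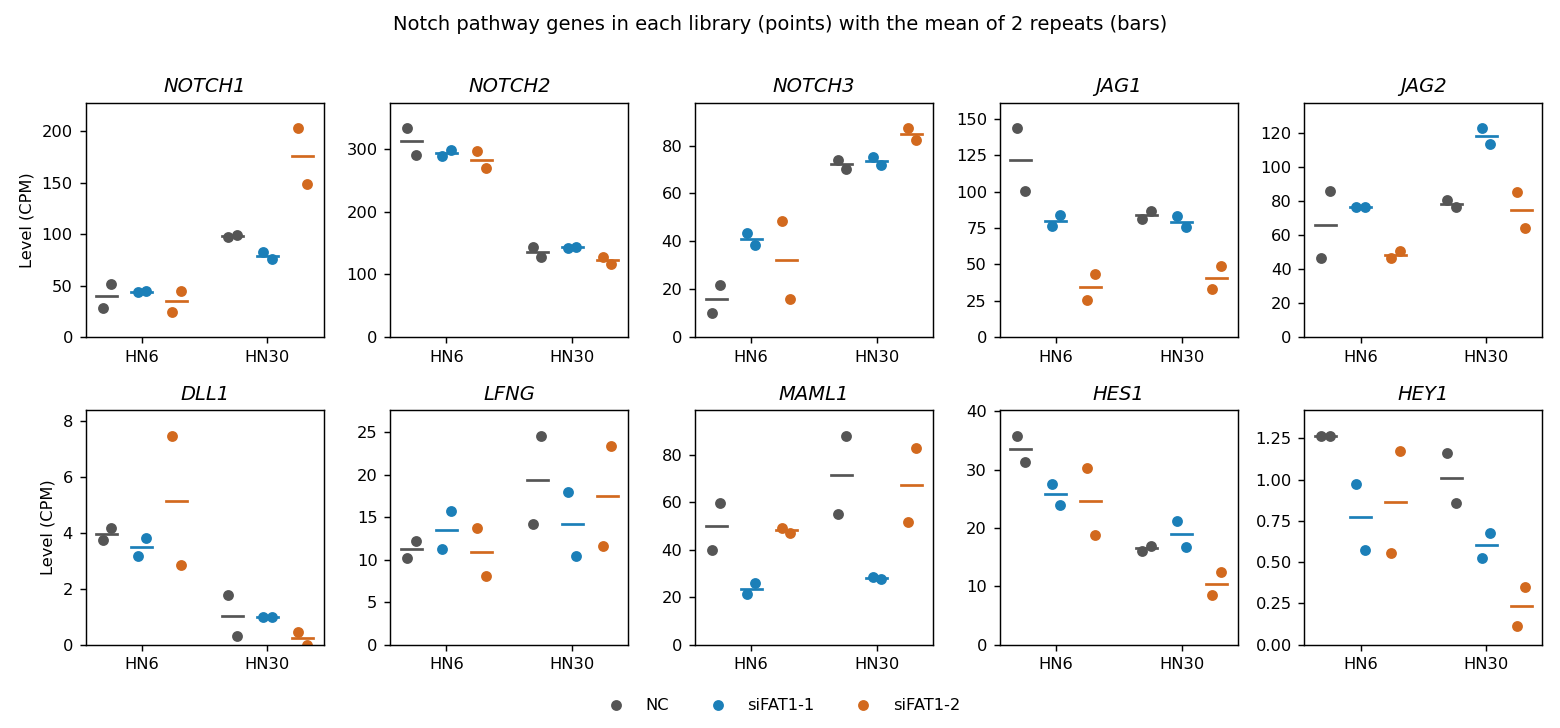
Level in CPM of each of the 10 genes in each of the 12 libraries (points), by cell line and siRNA, with the mean of the 2 repeats as a bar; each panel has its own axis from 0. JAG1 lies low in the 4 siFAT1-2 libraries, MAML1 in the 4 siFAT1-1 libraries, and NOTCH1, NOTCH2, NOTCH3 and DLL1 separate the lines.

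The promoter that bears most directly on the pathway is that of HES1, the classical RBPJ target. RefSeq promoters on GRCh38.p14 matched 8 of the 10 genes by symbol. The 250 bases before the start of HES1, chr3:194135898-194136147 on the plus strand, are shown with the letters GTGGGAA of the RBPJ motif and CACNAG of the N box, to which HES factors bind, in capitals:
HES1: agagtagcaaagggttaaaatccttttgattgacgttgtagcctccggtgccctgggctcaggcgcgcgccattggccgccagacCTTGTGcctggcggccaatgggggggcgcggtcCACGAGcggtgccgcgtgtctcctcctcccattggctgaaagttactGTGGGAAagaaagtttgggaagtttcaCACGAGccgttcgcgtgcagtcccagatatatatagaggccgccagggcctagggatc
Searched on both strands, this window held 1 match to GTGGGAA, ending 78 bases before the start, and 3 to CACNAG, 1 of them on the opposite strand, and none of the matches overlapped. GTGGGAA was found in 5.43% of 35116 promoter windows of this length and in none of the other windows of the Notch genes. CACNAG was found in 32.0% of them, and once each for NOTCH3, MAML1 and 1 of the 2 LFNG entries. These are matches of letters in a window, and nothing was read from them about binding.

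Per length of exon, NOTCH2 was the most abundant Notch gene of HN6. In the NC libraries it was at 18.6 ± 1.80 CPM per kb (SD, n = 2), followed by HES1 at 16.3 ± 1.54 (SD, n = 2) and JAG1 at 13.1 ± 3.31 (SD, n = 2). NOTCH2 and HES1 overlapped in their repeats, as did HES1 and JAG1. Then came JAG2 at 10.3, MAML1 at 8.37, LFNG at 3.26, NOTCH1 at 3.19, NOTCH3 at 1.69, DLL1 at 1.03 and HEY1 at 0.231 CPM per kb. In HN30 the order was flatter, with JAG2 at 12.3 ± 0.451 (SD, n = 2), MAML1 at 12.02 ± 3.92 (SD, n = 2) and JAG1 at 9.02 ± 0.392 CPM per kb (SD, n = 2) at the top. NOTCH2, HES1, NOTCH1 and NOTCH3 stood close together there at 8.10, 8.01, 7.83 and 7.68 CPM per kb, differences within the spread of the repeats. DLL1 and HEY1 were the lowest in both lines, at 0.269 and 0.184 CPM per kb in HN30. Lengths were those of all exons of a gene in GENCODE 44. With the length of the canonical transcript in their place the order of HN6 was kept, whereas in HN30 JAG1 moved to first place and HEY1 above DLL1.

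**Figure D2:**
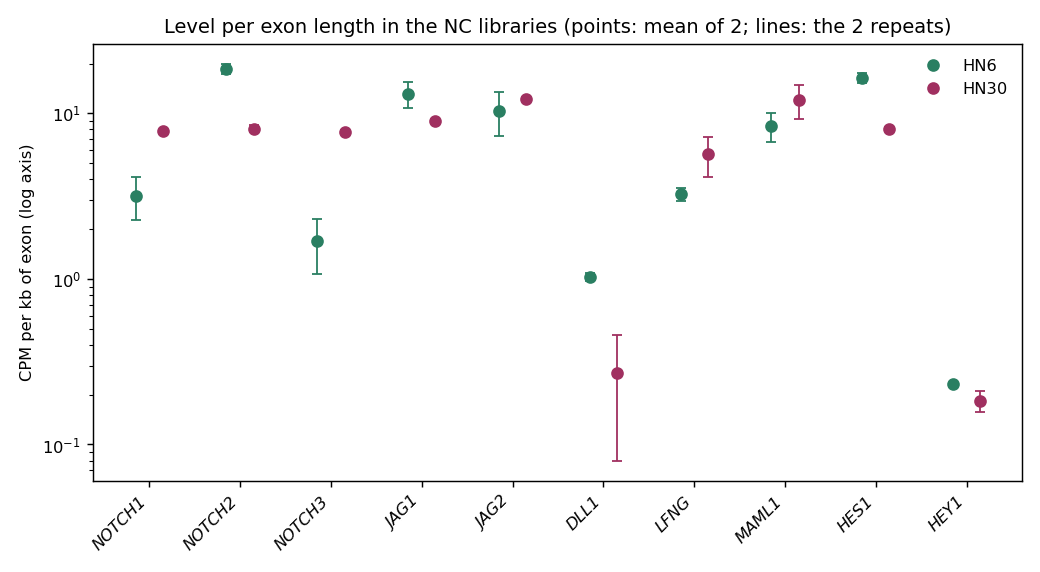
Mean level of each gene in the NC libraries of HN6 and HN30 in CPM per kb of exon on a log axis (points, n = 2), with lines joining the 2 repeats. In HN6 the receptors spread from 1.69 (NOTCH3) to 18.6 (NOTCH2), while in HN30 they lie between 7.68 and 8.10.

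Both lines held RNA of all 3 receptors, at different levels. NOTCH2 was higher in HN6, while NOTCH1 and NOTCH3 were higher in HN30, and in each of the 3 the 6 libraries of a line, whatever the siRNA, did not overlap those of the other. In HN6 against HN30 with siRNA as a term, 6 of the 10 genes were called at an adjusted p under 0.05, where 56.9% of all genes tested were called. DLL1 and HES1 rose with NOTCH2 in HN6, and JAG2 fell with NOTCH1 and NOTCH3. The lines did not overlap in 4 of the 10 genes, which are the 3 receptors and DLL1, against 26.0% of all genes tested. The share of calls lies near the background, and nothing particular to the Notch genes was read from it. In bulk RNA, fewer cells expressing a gene and less RNA per cell cannot be told apart.

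NOTCH2 ran from 269.7 CPM through a median of 293.5 to 333 CPM in HN6 and from 117 through 135 to 144 CPM in HN30, a log2 fold change of 1.15 (standard error 0.0962, edgeR adjusted p = 1.3e-06). Some reads of NOTCH2 are near-identical to its NOTCH2NL copies, whose entry NOTCH2NL was at a log2 fold change of -0.26 (edgeR adjusted p = 0.133), so the split between them is uncertain. NOTCH1 was at 24.2, 43.97 and 51.6 CPM (lowest, median, highest) in HN6 and at 75.6, 98.2 and 203 CPM in HN30. Every HN30 library thus lay above every HN6 library, with a log2 fold change of -1.49 (standard error 0.264, edgeR adjusted p = 0.000465). NOTCH3, a receptor best known from vascular smooth muscle, was at 10.1, 30.1 and 48.4 CPM in HN6 and at 70.4, 74.8 and 87.4 CPM in HN30, a log2 fold change of -1.47 (standard error 0.299, edgeR adjusted p = 0.00122). Its HN6 libraries were far more spread than those of HN30.

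Of the ligands, DLL1 was at 2.83 to 7.48 CPM in HN6 and at 0 to 1.75 CPM in HN30, with a log2 fold change of 2.63 (standard error 0.666, edgeR adjusted p = 0.0051). These levels rest on few reads, 94 to 270 counts in HN6 and 0 to 62 in HN30, and 9.69% of the exon bases of DLL1 overlap FAM120B on the opposite strand. JAG2 was lower in HN6 by a smaller margin, at 46.4, 63.4 and 85.6 CPM against 63.9, 82.8 and 123 CPM, a log2 fold change of -0.50 (standard error 0.157, edgeR adjusted p = 0.0166) with overlapping libraries. JAG1 was at 80.1 CPM (median) in HN6 and 78.4 CPM in HN30, and its log2 fold change of 0.10 had a 95% interval from -0.30 to 0.51.

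HES1, a basic helix-loop-helix repressor, was at 18.8, 28.9 and 35.9 CPM in HN6 and at 8.51, 16.4 and 21.3 CPM in HN30, a log2 fold change of 0.90 (standard error 0.190, edgeR adjusted p = 0.00157). A single HN6 library, siFAT1-2 repeat 2, lay below the highest HN30 library. HEY1 was not called between the lines, with a log2 fold change of 0.81 (edgeR adjusted p = 0.102), nor were LFNG at -0.51 (edgeR adjusted p = 0.107) and MAML1 at -0.42 (edgeR adjusted p = 0.0532). DESeq2 called MAML1 between the lines, at -0.40 (DESeq2 adjusted p = 0.044). A replicate block by repeat number, shared by both lines, took MAML1 to an edgeR adjusted p of 0.026. Whether repeats of the same number belong together across the lines is not given by the labels. The edgeR value without a block was under 0.05 without HN6 NC repeat 2, HN30 NC repeat 1 or HN30 siFAT1-2 repeat 1, the lowest being 0.0289. In the NC libraries alone, 2 against 2, NOTCH2 stayed past the threshold (edgeR adjusted p = 0.04996), and the other called genes kept their direction without passing it, at edgeR adjusted p of 0.0561 for NOTCH3, 0.0922 for NOTCH1, 0.116 for HES1, 0.186 for DLL1 and 0.645 for JAG2. Of 6 fibroblast markers 4 reached 1 CPM in HN6 and 3 in HN30, and their sum, mostly COL1A1, was at 69.2 to 164 CPM in HN6 and 12.5 to 50.1 CPM in HN30, and their part in these differences was not tested.

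**Figure D3:**
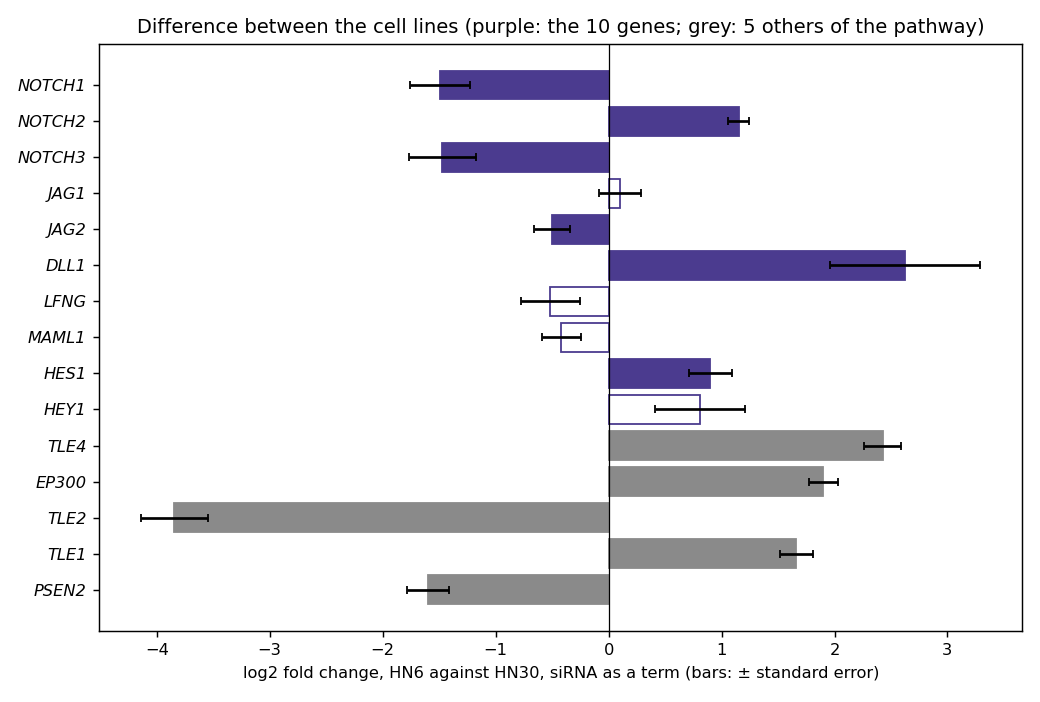
Log2 fold change of HN6 against HN30 for the 10 genes (purple) and for the 5 other pathway genes with the smallest p (grey), with standard errors; filled bars have an edgeR adjusted p under 0.05. TLE2 at -3.85 and DLL1 at 2.63 are the longest bars in their directions.

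Wider pathway genes were called between the lines no more often than genes at large. Of 55 further genes listed for the pathway, 52 passed the filter, and 11 were higher and 15 lower in HN6 beside the 56.9% of all genes called, with a median log2 fold change of -0.01 beside 0.00 (0.00116) over all genes tested. The strongest by p were Groucho-type corepressors and a histone acetyltransferase: TLE4 at a log2 fold change of 2.43, EP300 at 1.90, TLE2 at -3.85 and TLE1 at 1.66, followed by PSEN2, a catalytic subunit of gamma-secretase, at -1.60 (edgeR adjusted p at most 1.97e-05). In the NC libraries alone TLE4, EP300 and TLE1 kept their calls and PSEN2 lost its own, at -1.24 (edgeR adjusted p = 0.103). TLE2, with 8 and 36 counts in the HN6 NC libraries, had no value in that fit. TLE2 was at 0.273 to 1.01 CPM in HN6 and 8.29 to 12.01 CPM in HN30. HES5, HEY2 and HEYL, target genes beside HES1 and HEY1, did not pass the filter.

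FAT1 knockdown with the siRNAs pooled called none of the Notch genes. In 8 KD against 4 NC libraries with cell line as a term, 0 of 10 had an edgeR adjusted p under 0.05, and 0.547% of all genes tested were called. Without adjustment 2 of 10 had an edgeR p under 0.05, both lower, as had 2016 of the 13887 genes tested in either direction. DESeq2 and limma-voom also called 0 of 10. At the study's own thresholds, which are a P under 0.05 before adjustment and a log2 fold change beyond 1 on either side, the number was again 0, with 3.07% of all genes called. The 2 genes were JAG1 at a log2 fold change of -0.80 (standard error 0.316, edgeR adjusted p = 0.274) and HEY1 at -0.95 (standard error 0.418, edgeR adjusted p = 0.321). The others ran from -0.53 (MAML1) to 0.63 (NOTCH3), with a median of -0.19 for all 10 beside 0.02 for all genes tested. HEY1 was the 1 gene of 10 with every KD library below both NC libraries of its line, a pattern on either side that 5.44% of all genes showed.

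HEY1, a repressor related to the HES family, was close to the floor. In HN6 it was at 1.26 and 1.27 CPM with NC, 0.974 and 0.573 CPM with siFAT1-1 and 0.554 and 1.17 CPM with siFAT1-2. In HN30 the values were 1.16 and 0.857, 0.524 and 0.678, and 0.115 and 0.349 CPM in the same order. The NC libraries were the highest in both lines, but these levels stand for 4 to 45 counts, and the standard error of its fold change was the second widest of the 10 genes after DLL1.

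With each siRNA against NC on its own, 1 of the 10 genes was called, and not the same one. Of all genes tested, 3.25% were called with siFAT1-1 and 11.8% with siFAT1-2. Nothing particular to the Notch genes was read from these counts. JAG1 fell with siFAT1-2, MAML1 fell with siFAT1-1, and both differences between the siRNAs passed the test. The summed fibroblast markers were at 74.2 CPM with NC and reached 164 CPM over all libraries in HN6, and went from 12.5 to 21.9 CPM with NC and up to 50.1 CPM over all in HN30. The summed squamous markers were at 1560 to 2820 CPM with NC in HN6 and reached 4880 CPM over all its libraries, and in HN30 they were at 2020 to 2140 CPM with NC and 1400 to 3130 CPM over all. The part of either in the results for each siRNA was not tested.

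JAG1, the ligand mutated in Alagille syndrome, lies on the minus strand of chromosome 20, chr20:10637684-10673999 in GENCODE 44 on GRCh38, and 3.29% of its exon bases overlap an antisense long noncoding RNA. In HN6 it was at 144 and 100.3 CPM with NC, 76.2 and 84.0 CPM with siFAT1-1 and 25.5 and 43.6 CPM with siFAT1-2. In HN30 it was at 81.3 and 86.4 CPM with NC, 83.1 and 75.5 CPM with siFAT1-1 and 33.0 and 48.8 CPM with siFAT1-2. All 4 siFAT1-2 libraries lay below every other library of their line, while siFAT1-1 overlapped NC in HN30 and lay below it in HN6. The mean therefore went from 122 ± 30.8 (SD, n = 2) to 34.5 ± 12.8 CPM (SD, n = 2) with siFAT1-2 in HN6 and from 83.8 ± 3.65 (SD, n = 2) to 40.9 ± 11.2 CPM (SD, n = 2) in HN30.

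For siFAT1-2 against NC the log2 fold change of JAG1 was -1.43 (standard error 0.232, edgeR adjusted p = 0.00465), and it was the only one of the 10 genes called, where 11.8% of all genes tested were called. The edgeR adjusted p stayed between 0.00656 and 0.0172 with each library left out in turn. For siFAT1-1 the log2 fold change was -0.36 with a 95% interval from -0.85 to 0.13 (edgeR adjusted p = 0.408). The difference between the siRNAs was 1.07 (standard error 0.229, edgeR adjusted p = 0.00939), higher with siFAT1-1. Within HN6 alone, in a fit of all 6 conditions added after the data were seen, siFAT1-2 lowered JAG1 by a log2 fold change of -1.82 (edgeR adjusted p = 0.0435), the 1 gene of 10 called there beside 0.590% of all genes, and that call was lost when any of 9 of the 12 libraries was left out, with a highest edgeR adjusted p of 0.198. In HN30 the value was -1.04 (edgeR adjusted p = 0.141), where 0 of 10 genes and 0.173% of all genes were called, and the difference between the lines was -0.79 (edgeR adjusted p = 0.784). DESeq2 called JAG1 within HN30, at -1.02 (DESeq2 adjusted p = 0.042).

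MAML1, which bridges the Notch intracellular domain to histone acetyltransferases, lies on the plus strand at chr5:179732822-179777283. In HN6 it was at 40.0 and 60.0 CPM with NC, 21.3 and 26.0 CPM with siFAT1-1 and 49.0 and 47.2 CPM with siFAT1-2. In HN30 it was at 55.2 and 88.2 CPM with NC, 28.5 and 27.5 CPM with siFAT1-1 and 51.8 and 83.2 CPM with siFAT1-2. The siFAT1-1 libraries were the lowest of both lines, and the siFAT1-2 libraries lay among or just below the NC libraries.

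With siFAT1-1 against NC the log2 fold change of MAML1 was -1.22 (standard error 0.213, edgeR adjusted p = 0.00999), and again it was the only one of the 10 genes called, where 3.25% of all genes tested were called. The call rested on both HN30 siFAT1-1 libraries: the edgeR adjusted p was 0.0567 without repeat 1 and 0.0611 without repeat 2, at log2 fold changes of -1.19 and -1.18. For siFAT1-2 the log2 fold change was -0.07 with a 95% interval from -0.53 to 0.38. The difference between the siRNAs was -1.15 (standard error 0.212, edgeR adjusted p = 0.0052), lower with siFAT1-1, and it held with each library left out. Within the lines the value for siFAT1-1 was -1.08 in HN6 (edgeR adjusted p = 0.409) and -1.36 in HN30 (edgeR adjusted p = 0.0695, and 0.041 and 0.0376 without HN6 NC repeat 1 or 2), with 0 of 10 genes called in either, beside 0.108% and 1.46% of all genes. DESeq2 called MAML1 within HN30, at -1.33 (DESeq2 adjusted p = 0.003).

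**Figure D4:**
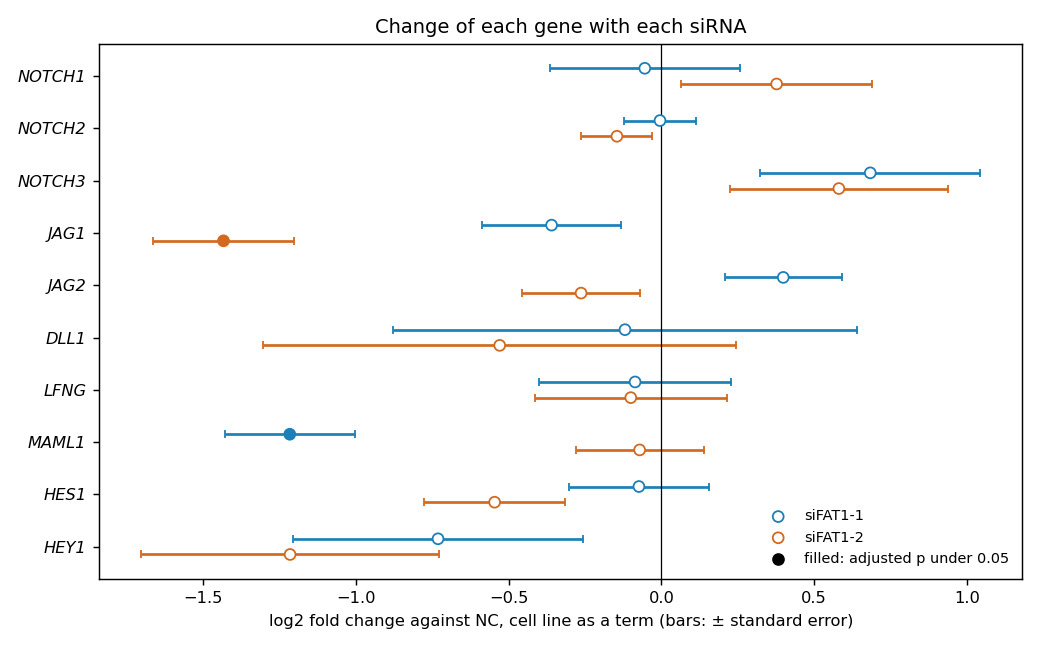
Log2 fold change of each gene against NC with siFAT1-1 (blue) and siFAT1-2 (orange), with standard errors; filled points have an edgeR adjusted p under 0.05. The filled points are MAML1 with siFAT1-1 at -1.22 and JAG1 with siFAT1-2 at -1.43, each with an open point near 0 or at -0.36 for the other siRNA.

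JAG2, a ligand close to JAG1 in structure, was the third gene called between the siRNAs. It was at 46.5 and 85.6 CPM with NC, 76.3 and 76.6 CPM with siFAT1-1 and 46.4 and 50.5 CPM with siFAT1-2 in HN6. In HN30 the levels were 80.4 and 76.4 CPM, 123 and 114 CPM, and 85.2 and 63.9 CPM. The siFAT1-1 libraries were above those of siFAT1-2 in both lines, but NC overlapped siFAT1-2 in both and siFAT1-1 in HN6. The log2 fold change of siFAT1-1 against siFAT1-2 was 0.66 (standard error 0.192, edgeR adjusted p = 0.0352), a call lost in 7 of the 12 fits that left out 1 library, with a highest edgeR adjusted p of 0.107 without HN30 siFAT1-1 repeat 1. Neither siRNA moved it past the threshold against NC, at 0.40 (edgeR adjusted p = 0.283) and -0.26 (edgeR adjusted p = 0.389). Without HN6 NC repeat 2 the value for siFAT1-1 was 0.61 and passed it (edgeR adjusted p = 0.0322), and that for siFAT1-2 was -0.019. A same-strand long noncoding RNA shares 7.33% of its exon bases. In this comparison 3 of the 10 genes were called, and 17.4% of all genes tested.

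**Figure D5:**
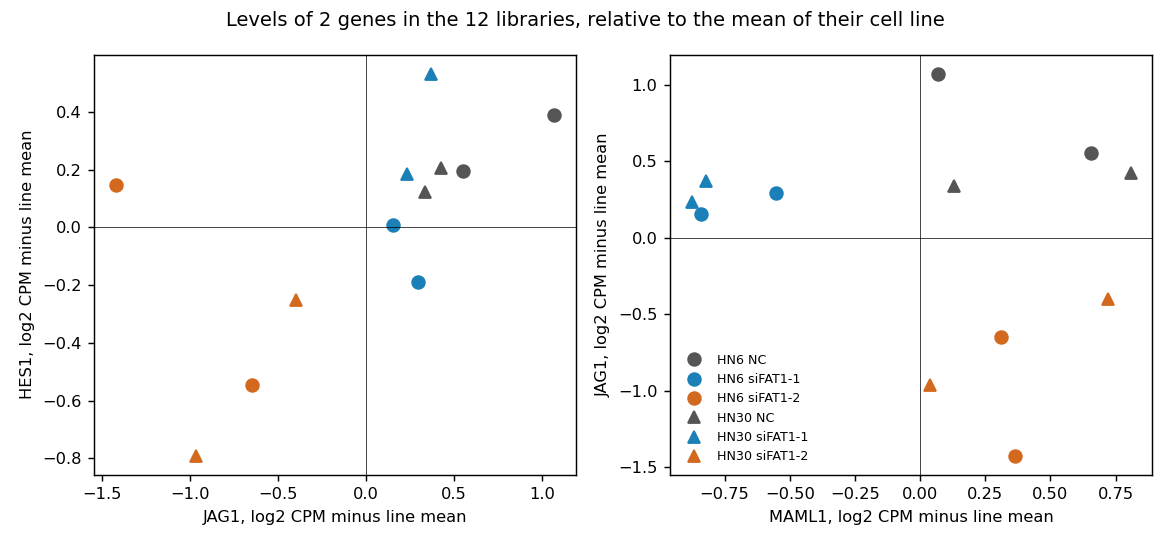
Levels of JAG1 and HES1 (left) and of MAML1 and JAG1 (right) in the 12 libraries, as log2 CPM minus the mean of the cell line; colour marks the siRNA and shape the line. On the right the siFAT1-1 libraries sit at low MAML1 and the siFAT1-2 libraries at low JAG1.

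HES1 lies at chr3:194136148-194138732. It was at 35.9 and 31.4 CPM with NC, 27.6 and 24.0 CPM with siFAT1-1 and 30.4 and 18.8 CPM with siFAT1-2 in HN6. In HN30 it was at 16.0 and 17.0 CPM, 21.3 and 16.7 CPM, and 8.51 and 12.4 CPM. The siFAT1-2 libraries were below both NC libraries in each line, and the siFAT1-1 libraries were below NC in HN6 but not in HN30. For siFAT1-2 the log2 fold change was -0.55 (standard error 0.230, edgeR adjusted p = 0.140), and for HEY1 it was -1.22 (standard error 0.488, edgeR adjusted p = 0.124), neither past the threshold. Without HN6 siFAT1-2 repeat 2, HEY1 passed it at -1.71 (edgeR adjusted p = 0.0416). For siFAT1-1 the values were -0.07 (edgeR adjusted p = 0.894) for HES1 and -0.73 (edgeR adjusted p = 0.424) for HEY1. With siFAT1-2, 3 of the 10 genes (JAG1, HES1 and HEY1) had every library on the same side of NC in both lines, as had 22.5% of all genes, and with siFAT1-1 the 2 genes were MAML1 and HEY1, beside 20.9% of all genes.

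The receptors, DLL1 and LFNG gave no call with either siRNA. NOTCH2 had 95% intervals from -0.26 to 0.25 for siFAT1-1 and from -0.40 to 0.11 for siFAT1-2. NOTCH1 in HN30 stood at 97.3 and 99.0 CPM with NC, 82.8 and 75.6 CPM with siFAT1-1 and 203 and 149 CPM with siFAT1-2. Both siFAT1-2 libraries were the highest of that line, whereas in HN6 they were at 24.2 and 44.95 CPM against 28.4 and 51.6 CPM with NC. The change with siFAT1-2 was 0.84 in HN30 (edgeR adjusted p = 0.252) and -0.21 in HN6 (edgeR adjusted p = 0.748), and the lines did not differ past the threshold (edgeR adjusted p of 0.784).

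NOTCH3 in HN6 was at 10.1 and 21.7 CPM with NC, 43.4 and 38.6 CPM with siFAT1-1 and 48.4 and 16.1 CPM with siFAT1-2, so only siFAT1-1 was clear of both NC libraries. In HN30 all 6 libraries lay between 70.4 and 87.4 CPM. The change with siFAT1-1 in HN6 was 1.37 (edgeR adjusted p = 0.527), with siFAT1-2 it was 1.02 (edgeR adjusted p = 0.233). The latter was 0.018 without HN6 siFAT1-2 repeat 1 and 1.67 without HN6 NC repeat 2. Over both lines the log2 fold changes were 0.68 (edgeR adjusted p = 0.323) and 0.58 (edgeR adjusted p = 0.302). LFNG ranged from 8.09 to 15.8 CPM in HN6 and from 10.4 to 24.6 CPM in HN30, with log2 fold changes of -0.09 and -0.10 for the siRNAs. DLL1 was at 3.72 and 4.17 CPM with NC, 3.17 and 3.82 CPM with siFAT1-1 and 7.48 and 2.83 CPM with siFAT1-2 in HN6, and its intervals were wide, from -1.77 to 1.53 for siFAT1-1 and from -2.21 to 1.16 for siFAT1-2.

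Neither line alone gave a call for KD against NC. Of the 10 genes 0 were called within HN6 and 0 within HN30, and the share of all genes called was 0% in both (0 of 13626 and 0 of 13602 in edgeR), where 779 and 1265 genes had an unadjusted p under 0.05, DESeq2 called 68 and 201 and limma-voom 0 and 0. DESeq2 and limma-voom called 0 of the 10 genes in both lines. For the difference of the KD effect between the lines, 0 of 10 genes and 0% of all genes were called, 298 genes had an unadjusted p under 0.05, and DESeq2 and limma-voom called 0 genes each. The same term for siFAT1-1 alone and for siFAT1-2 alone called 0 of 10 and 0% of all genes as well, with 542 and 690 genes at an unadjusted p under 0.05.

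Among the 52 tested genes of the wider list, KD against NC called 1, beside 0.547% of all genes. It was the corepressor CTBP1, which fell by a log2 fold change of -0.89 (standard error 0.133, edgeR adjusted p = 0.0102). It was at 118 and 150.1 CPM with NC and 65.2 to 76.0 CPM with KD in HN6, and at 102 and 79.9 CPM against 45.1 to 53.5 CPM in HN30, with no overlap in either line. Without HN30 NC repeat 1 the edgeR adjusted p was 0.0812. Among the next by p were the gamma-secretase subunit APH1B at 1.44 (edgeR adjusted p = 0.0941), FBXW7, which marks the Notch intracellular domain for degradation, at 0.88 (edgeR adjusted p = 0.098), and TLE1 at -0.68 (edgeR adjusted p = 0.117). DESeq2 called all 3 of these. The median over the 52 was 0.11 beside 0.02 for all genes tested.

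With siFAT1-1 alone 3 of the 52 fell and 0 rose, beside 3.25% of all genes called. They were CTBP1 at -0.94, TLE1 at -0.86 and MAML3, a second Mastermind gene, at -1.81 (edgeR adjusted p = 0.0215). MAML3 was at 7.28 and 2.90 CPM with NC and 1.36 and 1.43 CPM with siFAT1-1 in HN6, and at 9.17 and 8.77 against 3.52 and 1.76 CPM in HN30. Its siFAT1-1 libraries were the lowest of both lines, as for MAML1, and its call was lost in 6 of the 12 fits that left out 1 library, while that of TLE1 was lost in 5. With siFAT1-2, where 11.8% of all genes were called, those that fell included CTBP1 at -0.85 and FURIN, which cuts the receptor during its maturation, at -0.56, and 4 rose (APH1B at 1.55, HES7 at 1.49, FBXW7 at 1.13 and HDAC1 at 0.50). Of these 6 named calls CTBP1 and FBXW7 held with each library left out, and the highest edgeR adjusted p of the other 4 was 0.128 for HDAC1 without HN30 NC repeat 1. Processing also took 2 of them past the threshold. With no filter the edgeR adjusted p was 0.0529 for FURIN and 0.0666 for HDAC1, and with DESeq2 size factors it was 0.0533 for FURIN.

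Between the siRNAs 9 of the 52 were called, a share close to the 17.4% of all genes. Higher with siFAT1-1 were the glycosyltransferase MFNG at 1.96, the target gene HES4 at 1.02, DTX4 at 0.90, TLE4 at 0.81 and FURIN at 0.71. Lower with siFAT1-1 were MAML3 at -1.42, the glycosyltransferases POGLUT1 and POFUT1 at -0.67 and -0.58, and FBXW7 at -0.56. Of these 9 only MFNG kept its call with each library left out. With no filter FBXW7 also lost its call, at an edgeR adjusted p of 0.0632. All these comparisons share the NC libraries or each other's siRNA libraries and are not independent of one another. MAML3, FURIN, HDAC1, HES7 and the genes named for the difference between the siRNAs were singled out after their values were seen.

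Genes with a pattern like that of JAG1 over the 12 libraries, as log2 CPM centred within the line, were BAHCC1 at a Pearson r of 0.974, CIB1 at 0.97 and NFKB1 at 0.97. For HES1 they were HAPLN3 at 0.953, SOCS3 at 0.939 and PARD3B at 0.935. The libraries share siRNA groups, and these were the highest of all tested genes, so the values only describe likeness.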

How the data were processed

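Poly(A) RNA of the 12 libraries was sequenced as paired reads by a company, and poly-N, duplicate and low-quality reads were removed. The submitters' processing notes name HISAT2, featureCounts and the build hg38. The annotation and the strand setting are not given in the sources used here. The deposited values are raw whole-number counts per gene, and of 19225 genes 2112 had no count in any library. Libraries held 26430049 to 47639010 counts.

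Groups were taken from the labels. Genes were kept by filterByExpr with a minimum count of 10, scaled by TMM and tested with edgeR 4.0.16 (R 4.3.3) quasi-likelihood fits, with cell line or siRNA as a covariate and Benjamini-Hochberg adjustment over all genes tested at 0.05. Intervals are at 95%. Each siRNA was fitted with the cell line as a term, and fits within a line for each siRNA, from all 6 conditions, were added after seeing the data. Alternatives were DESeq2 1.42.0, limma-voom (limma 3.58.1), DESeq2 size factors, no filter, the thresholds of the study, no cell line term, NC libraries only, a replicate block and each library left out. The labels mark a repeat as a separate time, so numbers pair libraries within a line: deviations of same-numbered libraries correlated at 0.0778 to 0.242 in HN6 and -0.0337 to 0.405 in HN30. Scripts were tested on simulated data.

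The members and lists were chosen with earlier results of these data known. Named are the 10 genes, FAT1, NOTCH2NL, the 5 wider pathway genes with the smallest p in KD against NC and in HN6 against HN30, and the 3 genes with the highest Pearson r to JAG1 and to HES1. Of the wider pathway genes, 1 is not reported here. Genes outside this rule are identified in the text.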

Additional observations from a re-analysis of the deposited data

Results flagged for a closer look

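DLL1 in HN6 siFAT1-2 repeat 1 stood at 7.48 CPM, far above the other 5 HN6 libraries, whose values ran from 2.83 to 4.17 CPM. The second repeat of the same condition was the lowest of the line, at 2.83 CPM. It was the 1 value set apart among 20 combinations of a gene and a line, and chance sets apart about 1 in 20.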

How the results depend on the processing

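Over the alternatives 1274 values of single genes kept direction and side of the threshold, 123 no longer passed it, 15 newly passed it and 12 reversed. Every reversal came from leaving out 1 library. With 1 library left out the log2 fold change in KD against NC ran from -0.01437 (without HN6 NC repeat 1) to 0.33 for JAG2, from -0.56 to 0.38 (without HN30 NC repeat 1) for DLL1 and from -0.21 to 0.13 (without HN30 NC repeat 2) for LFNG. Between the lines JAG1 ran from -0.006544 (without HN6 NC repeat 1) to 0.23. HES1 with siFAT1-1 ran from -0.23 to 0.03881, reversing without HN6 siFAT1-1 repeat 2 and at 0.0002355 without repeat 1. MAML1 with siFAT1-2 ran from -0.23 to 0.09186, reversing without HN30 NC repeat 2 and at 0.02721 and 0.03847 without HN6 NC repeat 2 and HN30 siFAT1-2 repeat 1. NOTCH1 with siFAT1-2 within HN6 ran from -0.72 to 0.28, with 0.17 the other reversed value, and the line difference of MAML1 with siFAT1-1 from -0.10 to 0.58. The cause was not tested.

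The thresholds of the study gave 426 genes for KD, 4405 between the lines, 775 for siFAT1-1, 420 within HN6, 544 within HN30 and 249 for the interaction with KD. They gave 2 of the 10 genes for siFAT1-2 and 2 within HN6, and of the wider list 2 for KD and 12 between the lines. The count over all genes for siFAT1-2 at these thresholds is not given here, and nothing about the Notch genes was read from its 2. DESeq2 called 640 genes for KD, 1204 for siFAT1-1, 2700 for siFAT1-2, 68 within HN6 and 201 within HN30. It called 6 of the wider list for KD, and 1 of the 10 genes for siFAT1-1 and 1 for siFAT1-2 within HN30. For the fits of each siRNA within HN30 the DESeq2 count over all genes is not given, and nothing was read from those counts. The fit of 6 conditions called 1 gene for KD within HN6 and 8 within HN30. Without a cell line term 4 genes and 0 of the wider list were called for KD. NC libraries only gave 653 genes between the lines, 1 of the 10 and 3 of the wider list.

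With 1 library left out, KD called 12 to 61 genes and 0 to 1 of the wider list, siFAT1-1 113 to 712 genes and 0 to 2 of the 10, and siFAT1-2 693 to 1680 genes and 1 to 2 of the 10. The difference between the siRNAs called 997 to 3381 genes. Within the lines 0 to 1 of the 10 were called for siFAT1-1 in HN30 and 0 to 2 for siFAT1-2 in HN6. With all libraries 1.46% and 0.590% of all genes were called there. The shares with 1 library left out are not given, and nothing was read from those ranges.

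With the replicate block KD called 44 genes. The block took FAT1 in KD against NC to an edgeR adjusted p of 0.0757, HDAC1 with siFAT1-2 to 0.0621 and FBXW7 between the siRNAs to 0.06. It brought MAML1 between the lines to 0.026, where the repeat number was shared by both lines. Among the named genes it changed no other call in the comparisons fitted with it. The fits of each siRNA within a line had no block, so the call of JAG1 with siFAT1-2 within HN6 was not covered. HEY1 rested on 4 to 45 counts and DLL1 in HN30 on 0 to 62, with 2 repeats a condition.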
